A study of Mus musculus with 66 samples.

Results

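The nucleus accumbens (NAcc) of iMSN-D2RKO mice was compared between the dark and the light hours of the day, in a series that asks how cocaine and the loss of D2R alter daily gene expression. Of the 66 libraries of the series, 18 entered the comparison: all the libraries of this genotype that received saline or were taken as the ZT3 baseline. They hold 3 libraries at each of 6 time points. ZT is the time in hours after lights on, in a cycle of 12 h of light and 12 h of darkness, so that ZT3, ZT7 and ZT11 gave 9 libraries of the light hours and ZT15, ZT19 and ZT23 gave 9 of the dark hours. All mice were males of 3 to 5 months on a C57BL/6J background and, in iMSN-D2RKO, were homozygous for a loxP-flanked dopamine D2 receptor (D2R) gene. They carried 1 copy of a Cre recombinase driven by the promoter of the dopamine D1 receptor, which removes D2R from indirect-pathway medium spiny neurons (iMSNs) because precursors of spiny neurons express both receptors in the embryo, so that the interneurons and dopamine axons of the NAcc were not the cells targeted. Saline was injected intraperitoneally at ZT3 for the later time points, and the ZT3 libraries, labelled for both saline and cocaine, were taken at that hour as a baseline. The hour of day therefore runs together with the hours since the injection, and the effects of these cannot be told apart. For a comparison of genotypes, 18 libraries of mice labelled wild type (WT) at the same time points were used. All 14135 genes with an FPKM (fragments mapped to a transcript, scaled by its length and by the library's mapped fragments) of at least 1 in at least 1 of the 18 libraries were tested, out of 24138 in the table. Differences are on the scale log2(FPKM + 1), as the mean of the 3 dark time points minus the mean of the 3 light ones, with standard errors (SE) from limma. This scale understates the change of genes of low FPKM. The sources give 3 libraries a time point and do not say whether the 3 libraries of a time point came from 3 separate mice or from pools, and p-values measure the spread between these libraries.

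Nearly all cells keep time with a transcriptional loop. ARNTL (also called BMAL1) and CLOCK bind E-box sequences and switch on Per, Cry, Nr1d1 and Dbp, PER and CRY proteins then block ARNTL and CLOCK, and NR1D1 and ROR factors set the level of Arntl through ROR elements, while DBP acts at D-boxes. Mice are active in darkness, when their body temperature is high, and corticosterone peaks around lights off. Heat-shock factors, cold-inducible RNA-binding proteins and glucocorticoid receptors can pass such body rhythms on to genes in many tissues. Medium spiny neurons are the main cells of the NAcc, and those of the indirect pathway mark themselves by Drd2, Adora2a and Penk.

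The tissue label was met by its markers, since Penk (enkephalin) lay at 1197 FPKM or more and Ppp1r1b (DARPP-32, a signalling hub of spiny neurons) at 637 FPKM or more in every library. In bulk tissue, fewer cells of a type and less RNA per cell cannot be told apart. Drd2 was listed at 78.0 to 375 FPKM (median 107) in the 18 iMSN-D2RKO libraries and at 99.6 to 279 FPKM (median 126) in the 18 WT libraries. The genotypes differed by −0.02 (SE 0.17, iMSN-D2RKO minus WT, adjusted p = 0.979 by limma), with the sign turning in some alternatives. The sources used here do not say which part of the gene is deleted, and a value for the whole gene can include transcript outside that part. It can also include Drd2 of cells that were not targeted. The value therefore cannot check the genotype label, and why Drd2 did not differ was not tested.

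Libraries of the same time point differed strongly from each other. A library score, the projection on the first axis of the differences between libraries of the same group (43.6% of that variance over 9584 genes), set 13 of the 66 libraries apart, and 4 of them were iMSN-D2RKO libraries of the dark hours (ZT15 replicate 2, ZT19 replicates 1 and 3, ZT23 replicate 3). The scores of these 4 were 49.1 to 55.0 and those of the other 14 libraries −35.9 to −2.9. None of the 9 light libraries was set apart. Over the series, the only set-apart library of the light hours was ZT7 replicate 2 of iMSN-D2RKO mice given cocaine. The score thus runs together with the dark hours, and what sets these libraries apart was not tested. Without the 4 set-apart libraries the dark hours keep 5 libraries, and ZT19 keeps replicate 2 alone. That library then weighs as much as a whole time point, and such fits have less power. The ZT7 library of replicate 1 stood out in another way, with FPKM summing to 690048 against 381489 to 465297 in the other 17. Drd2 followed both, at 224, 350.4, 171 and 199 FPKM in the set-apart libraries and 375 FPKM in that ZT7 library, above the 78.0 to 157 FPKM of the others. The number of reads behind each value is unknown. An FPKM of exactly 0 may be a failed estimate, since 4 ribosomal protein genes that every cell uses (Rpl10, Rpl24, Rps16 and Rps23) were listed below 1 FPKM in all 18 libraries.

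**Figure D1:**
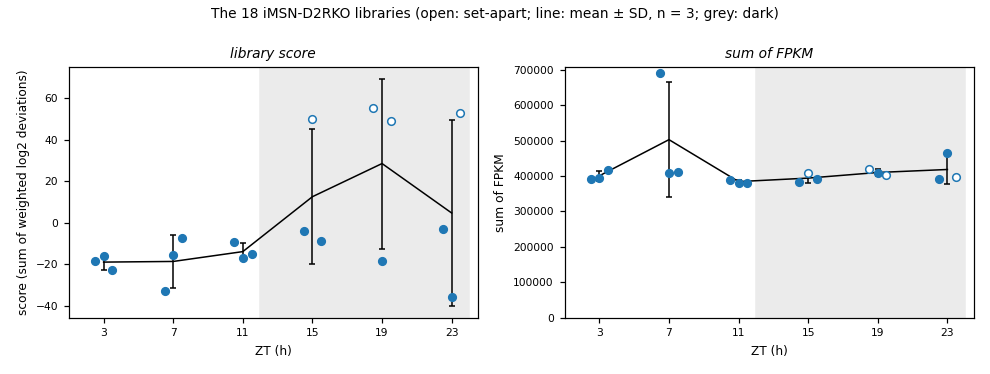
Library score (left) and sum of FPKM (right) of the 18 iMSN-D2RKO libraries against ZT in hours, with the mean ± SD of 3 libraries as a line, dark hours in grey and set-apart libraries as open circles. The 4 open circles lie at scores of 49.1 to 55.0, all in the dark hours, and 1 ZT7 library sums to 690048 FPKM.

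No gene passed the threshold of an adjusted p under 0.05 by limma for the difference between dark and light hours (0 of 14135, 0.0%), and the smallest adjusted p was 0.109. At an unadjusted p under 0.05 stood 4427 genes (31.3%), of which 2676 were higher in the dark (18.9% of the genes tested) and 1751 lower (12.4%). With the libraries put on a common scale by median ratios, the share higher in the dark among such genes moved from 60.4% to 48.7%. Without the 4 set-apart libraries, 657 of 13943 genes were left at an unadjusted p under 0.05 (4.71%), 375 higher (2.69%) and 282 lower (2.02%). With ZT7 replicate 1 left out as well, an alternative chosen after seeing the data, 1221 of 13791 were higher (8.85%) and 487 lower (3.53%). The calls turned on single libraries. Without ZT19 replicate 2, which leaves that time point with its 2 set-apart libraries, 3598 genes passed the adjusted threshold, and without ZT23 replicate 2 3121 did. Of the genes higher in the dark, 1688 were called in both of these fits, which is 74.7% of 2259 and 85.0% of 1985. Leaving out ZT7 replicate 1 gave 43 calls, and leaving out all of ZT7 gave 467, of which 394 were higher in the dark (2.82% of the genes tested). All differences given below failed the adjusted threshold with the 18 libraries unless stated, and they are described by their values. The shares of all genes given here (18.9% higher and 12.4% lower, and 2.69% and 2.02% without the set-apart libraries) are the ones against which the counts in gene lists are set.

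Groups that did not overlap at all were few. In 16 genes every dark library lay above every light library (0.113% of the genes tested), and in 7 every dark library lay below (0.0495%). Among the 16 were Clpx, the unfoldase of the mitochondrial ClpXP protease, at 12.8 to 16.0 FPKM in the dark against 9.83 to 11.9 in the light, and Msh6, a mismatch repair protein, at 5.52 to 9.33 against 4.41 to 5.18. Ugdh, which makes UDP-glucuronate, lay at 10.5 to 12.2 against 5.35 to 10.1 FPKM. Among the 7 were Gper1, a membrane oestrogen receptor, at 0.743 to 1.63 FPKM in the dark against 1.93 to 2.27 in the light, Ap2a1, a subunit of the clathrin adaptor AP-2, at 96.3 to 118 against 121 to 142, and Siglech, a microglial lectin, at 3.52 to 5.33 against 5.48 to 7.85. These genes were singled out after their values were seen.

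The 8 genes higher in the dark with the smallest p and a mean of at least 2 FPKM included 2 chaperone genes, Chordc1 and Hsph1, described with their group. Phtf1, a membrane protein, held 12.1 to 19.6 FPKM in the dark (median 13.9) and 7.50 to 11.8 FPKM in the light (median 9.53), with no overlap. Its difference was 0.55 (SE 0.11, adjusted p = 0.109 by limma), and 0.59 without the set-apart libraries. Zmym1, a zinc finger protein, differed by 0.71 (SE 0.13) and by 0.50 without those libraries, with 5.43 to 11.7 FPKM in the dark and 4.22 to 6.46 in the light. The dark range of Zmym1 reached into the light range in 1 library of ZT23. Rbm28, a nucleolar RNA-binding protein, was higher by 0.41 (SE 0.08), with 13.5 to 19.8 FPKM in the dark. Its 3 light libraries of ZT7, at 14.3 to 18.2 FPKM, lay within that range, and those of ZT3 and ZT11 held 9.33 to 13.5. Banp and Wdr78 were higher by 0.56 (SE 0.11) and 0.59 (SE 0.12). Wdr78, whose product helps to assemble ciliary dynein, also showed no overlap, at 3.63 to 6.25 FPKM in the dark against 2.17 to 3.45. Each of these kept its sign without the set-apart libraries, at 0.36 to 0.59.

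Among the 8 lower in the dark was Slc38a3, a system N transporter that moves glutamine. It lay at 17.6 to 29.8 FPKM in the dark (median 22.2) and at 29.4 to 43.6 FPKM in the light (median 34.8). Its difference was −0.59 (SE 0.11), and −0.42 without the set-apart libraries, and the groups overlapped by a single dark library. Slc37a4, the glucose-6-phosphate transporter of the endoplasmic reticulum (ER), differed by −0.81 (SE 0.17), with 6.51 to 17.2 FPKM in the dark and 10.3 to 24.3 in the light. Of the 5 dark libraries that were not set apart, 4 lay within the light range, and its difference without the set-apart libraries was −0.50. Pigz, an enzyme of GPI anchor synthesis, differed by −0.78 (SE 0.15), Mfsd10 by −0.51 (SE 0.10), Vsig2 by −0.67 (SE 0.13) and Adamtsl5, a protein of the extracellular matrix, by −0.64 (SE 0.13). Leaving out the set-apart libraries gave −0.55 for Pigz, −0.39 for Mfsd10, −0.46 for Vsig2 and −0.54 for Adamtsl5. Mir1188, also among the 8, was listed at 0 in all 9 dark libraries and in 4 light ones, and at 73.5 to 87.3 FPKM in the other 5. No fold was drawn from these values.

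Of the clock genes, those with E-boxes in their promoters include Ciart and Cry1, and Per3 has D-boxes. The 250 bases before the start of these 3 genes are shown because they hold such a box. Their levels also followed the time of day or kept their difference without the set-apart libraries. Clock genes for which no match was found, Nr1d1 among them, are not shown. The sequences are those of RefSeq (GRCm38.p6) in the direction of the gene, with each E-box (CACGTG) or D-box (TTATGTAA or TTACGTAA, on both strands) in capitals.
Ciart (chr3:95882229-95882478, minus strand): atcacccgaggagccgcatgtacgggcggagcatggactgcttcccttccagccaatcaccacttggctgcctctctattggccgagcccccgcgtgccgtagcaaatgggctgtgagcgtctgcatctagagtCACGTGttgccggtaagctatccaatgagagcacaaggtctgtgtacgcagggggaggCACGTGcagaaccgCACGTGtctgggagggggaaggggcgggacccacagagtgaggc
Cry1 (chr10:85185055-85185304, minus strand): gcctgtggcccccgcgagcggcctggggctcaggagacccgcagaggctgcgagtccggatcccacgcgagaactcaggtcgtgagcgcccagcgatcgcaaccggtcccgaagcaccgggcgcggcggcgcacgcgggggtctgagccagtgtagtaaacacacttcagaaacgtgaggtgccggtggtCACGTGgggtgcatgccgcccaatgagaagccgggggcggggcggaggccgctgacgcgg
Per3 (chr4:151044666-151044915, minus strand): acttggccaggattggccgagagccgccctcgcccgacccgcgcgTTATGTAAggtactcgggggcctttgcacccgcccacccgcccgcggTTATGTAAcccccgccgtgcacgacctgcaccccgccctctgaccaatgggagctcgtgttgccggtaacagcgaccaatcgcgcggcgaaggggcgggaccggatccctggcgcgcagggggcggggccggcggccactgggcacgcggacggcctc
The 3 E-boxes of Ciart begin 116, 58 and 44 bases before the start, the E-box of Cry1 60 bases before it and the 2 D-boxes of Per3 205 and 158 bases before it. The start is that of the promoter entry used. For Ciart and Per3 the span of the gene reaches into the window, to chr3:95882257 and chr4:151044707. An E-box occurred in 6.02% and a D-box in 0.931% of the same windows of all 32851 promoters in the table. The ROR element (TAGGTCA) occurred in 2.23% and the cAMP response element (TGACGTCA) in 1.55% of these windows. Of the other clock genes with a promoter in the table, Per1, Bhlhe41 and Tef held an E-box, Nfil3 a ROR element and Hlf a cAMP response element. No match to any of these elements was found for the 3 activators, 4 nuclear receptors and 4 kinases and adaptors with a promoter there. Such a match describes the letters only.

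Ciart, a repressor of the loop that binds to ARNTL, had the smallest p for a 24 h rhythm of all genes. It lay at 6.21, 5.19 and 6.08 FPKM at ZT3 and at 16.2, 11.6 and 13.0 FPKM at ZT11. It had come down to 4.58, 3.92 and 4.22 FPKM at ZT23. The 3 values at ZT11 lay above all those at ZT3, ZT19 and ZT23, and the 3 at ZT23 below all others. The dark time points held 9.28 to 12 FPKM at ZT15 and 5.50 to 7.28 FPKM at ZT19. At ZT7 replicate 1 lay at 15.6 FPKM, apart from 6.64 and 8.72. The difference between dark and light was −0.41 (SE 0.13), and −0.49 without the set-apart libraries.

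Nr1d1 (REV-ERBα), the nuclear receptor that represses Arntl, was the clock gene with the smallest p for dark against light. In the light it held 57.5 to 113 FPKM (median 68.5) and in the dark 37.2 to 73.1 FPKM (median 49.9). The only dark library within the light range was ZT15 replicate 2, a set-apart library, at 73.1 FPKM. The difference was −0.54 (SE 0.14, adjusted p = 0.109 by limma), and −0.74 without the set-apart libraries. When ZT7 replicate 1 was left out as well, it passed at −0.63 with an adjusted p of 0.00548 by limma, as 1 of 2 genes called there (0.0145%). It passed in 4 of 33 alternatives, over which its adjusted p ran from 0.00548 to 0.993. Its relative Nr1d2 held 21.3 to 33.3 FPKM in the light and 15.5 to 56.4 in the dark, where its 4 highest values were those of the set-apart libraries. Dbp, the output factor that binds D-boxes, differed by −0.74 (SE 0.25), from 80.3 to 392 FPKM in the light (median 143) and from 49.5 to 154 FPKM in the dark (median 84.8). Its highest light value was that of ZT7 replicate 1, the next being 166 FPKM, and without the set-apart libraries the difference was −0.40.

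Per and Cry genes took different courses. Per2 was higher in the dark by 0.48 (SE 0.18), with 15.1, 23.1 and 14.1 FPKM at ZT15 and 4.83, 7.93 and 10 FPKM at ZT7. Its difference was 0.28 without the set-apart libraries. Per1 lay lower in the dark, differing by −0.22 (SE 0.10) and by −0.15 without those libraries, its values being 34.3, 38.1 and 36.5 FPKM at ZT11, 31.1 to 37.5 at ZT15 and 23.9 to 24.1 at ZT19. Per3 lay high on both sides of lights off, at 10.6, 13.6 and 11.5 FPKM at ZT11 and 11.4, 11.1 and 11.9 FPKM at ZT15, against 7.03 to 9.49 at ZT3 and 7.41 to 7.90 at ZT23. Cry1 was higher in the dark by 0.32 (SE 0.11) and by 0.38 without the set-apart libraries. It lay at 12.4 to 18.5 FPKM in the dark (median 17.5) and at 10.9 to 17.2 FPKM in the light (median 12.7), where ZT3 replicate 3 was the highest. Cry2 ran from 39.7 to 55.6 FPKM in the light and from 33.8 to 54.6 in the dark.

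Of the activators, Arntl was higher in the dark by 0.41 (SE 0.15), with 9.51, 8.35 and 8.52 FPKM at ZT11 and 18.5, 13.1 and 20.1 FPKM at ZT23. Its difference was 0.14 without the set-apart libraries. Clock differed by 0.55 (SE 0.24) with 18 libraries and by 0.03 without the set-apart ones, and its sign turned with the library score as a covariate (−0.06). The set-apart libraries held 20.0 to 24.9 FPKM of Clock, and the other dark libraries 6.10 to 12.4. Bhlhe41 (DEC2, a repressor at E-boxes) was higher by 0.56 (SE 0.21) with 18 libraries, and by 0.08 without the set-apart ones. Usp2, a deubiquitinase under clock control, differed by −0.42 (SE 0.15), and by −0.34 without them.

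By group, at an unadjusted p under 0.05 stood 2 of 3 activators higher in the dark, 2 of 6 repressors higher and 2 lower, 1 of 5 nuclear receptors lower, 1 of 6 output factors higher and 1 lower, and 1 of 7 kinases and adaptors higher and 1 lower. Of all genes tested, 18.9% were higher and 12.4% lower at that level, and the lists hold 3 to 7 genes each. The list medians were 0.41 for the activators, −0.07 for the repressors, 0.08 for the nuclear receptors, 0.01 for the output factors and about 0 for the kinases and adaptors, beside 0.04 over all genes tested. Under median-ratio scaling the median of the output factors was −0.04. Without the set-apart libraries, 0 activators, 1 repressor (Cry1) and 1 output factor (Nfil3) were higher at that level, and 1 repressor (Ciart) and 1 nuclear receptor (Nr1d1) lower, beside 2.69% and 2.02% of all genes.

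**Figure D2:**
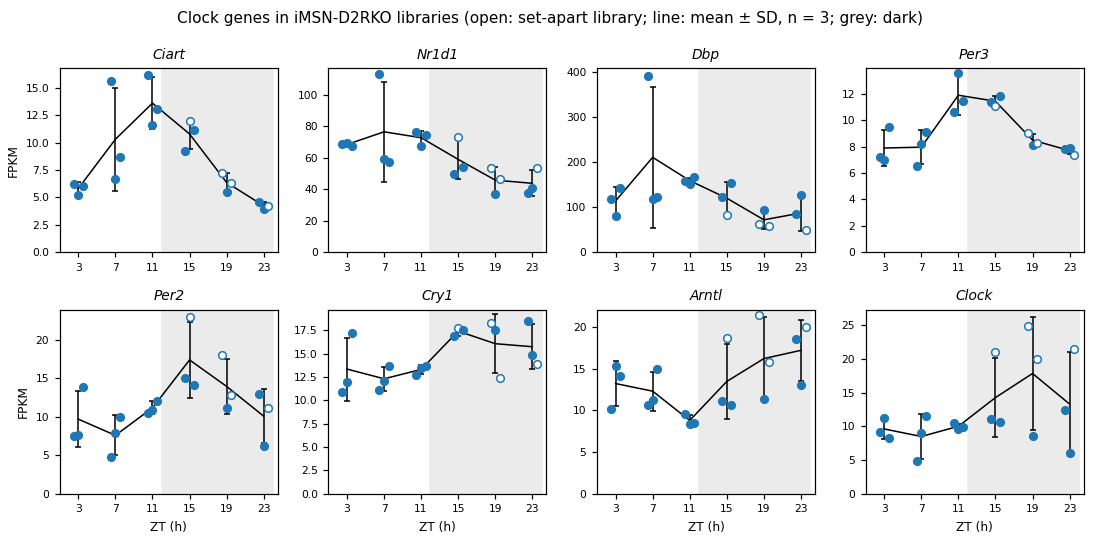
FPKM of 8 clock genes in the 18 iMSN-D2RKO libraries against ZT in hours, with the mean ± SD of 3 libraries as a line, dark hours in grey and set-apart libraries as open circles. Ciart and Per3 are highest around ZT11 to ZT15 and Nr1d1 lies lower in the dark, while the high dark values of Clock are those of the open circles.

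Chaperone genes were mostly higher in the dark, both with and without the set-apart libraries, but several of them lay near the dark level at ZT7, in the light. Heat-shock chaperones refold proteins in the cytosol and mitochondria, and many of their genes carry heat-shock elements bound by HSF1. Of 28 such genes tested, 23 were higher in the dark and 5 lower, and 14 were higher at an unadjusted p under 0.05 (18.9% of all genes were) and 0 lower. The median difference was 0.33, beside 0.04 over all genes. Without the set-apart libraries 11 of the 28 were higher at that level (2.69% of all genes were) and 0 lower, with a median of 0.27, and with the library score as a covariate 14 were higher (4.66% of all genes were). With ZT7 replicate 1 left out beside the set-apart libraries, 18 were higher (8.85% of all genes were) and 0 lower. Without ZT19 replicate 2, 12 of them passed the adjusted threshold as higher (16.0% of all genes did), and without ZT23 replicate 2 10 (14.1% of all genes did). The summed level of the list ran from 1270 to 3680 FPKM in the light (median 1630), with ZT7 replicate 1 at the top and the next library at 1880, and from 1840 to 3120 FPKM in the dark (median 2520). The 5 dark libraries that were not set apart held 1840 to 2520 FPKM.

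Chordc1, a co-chaperone of HSP90, had the smallest p of the group. It lay at 26.5 to 55.0 FPKM in the dark (median 34.0) and at 16.1 to 26.5 FPKM in the light (median 20.8), so that the groups touched only through ZT23 replicate 2 and ZT7 replicate 3. The difference was 0.89 (SE 0.16, adjusted p = 0.109 by limma). All 4 of its highest values were those of the set-apart libraries, and without them the difference was 0.57. Hsph1 (HSP110), the nucleotide exchange factor of HSP70, held 117 to 184 FPKM in the dark and 78.1 to 135 in the light, a difference of 0.56 (SE 0.11), and of 0.42 without the set-apart libraries. Its light values within the dark range were those of ZT7 replicates 1 and 3, at 134 and 135 FPKM.

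The other chaperones of this paragraph were chosen after their values were seen. Hspd1 (HSP60), the barrel of the mitochondrial chaperonin, differed by 0.33 (SE 0.07), with 34.6 to 41.4 FPKM in the dark and 25.1 to 39.4 in the light. Its light values were split, with ZT7 at 33.8 to 39.4 FPKM near the dark level and ZT3 and ZT11 at 25.1 to 29.5 below it. The difference was 0.34 without the set-apart libraries. Hspe1 (HSP10), the lid of the same chaperonin, differed by 0.25 (SE 0.21, unadjusted p = 0.253 by limma), its light range of 35.8 to 173 FPKM holding the dark range of 45.3 to 71.5 with ZT7 replicate 1 at the top. Stip1, which hands clients from HSP70 to HSP90, differed by 0.56 (SE 0.14), Hspa4 by 0.37 (SE 0.09) and Dnajb4, an HSP40, by 0.60 (SE 0.15). They differed by 0.40, 0.24 and 0.26 without the set-apart libraries. Ahsa2 and Fkbp4, which attend HSP90, were higher by 0.45 and 0.32 with 18 libraries and by 0.58 and 0.53 without the set-apart ones. Hspa8 (HSC70), the main HSP70 of resting cells, ran from 73.2 to 347 FPKM in the dark and from 47.3 to 318 in the light, a difference of 1.15 (SE 0.36) with 18 libraries and of 0.93 without the set-apart ones.

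Hspd1 and Hspe1 lie head to head on chromosome 1 and share their promoter. It is shown because it holds the heat-shock element in the form searched for (GAA, TTC and GAA with 2 bases between each, on both strands), in capitals, which occurred in 0.466% of the windows of all promoters and in windows of 3 of the 23 heat-shock genes with a promoter in the table (Dnajb6, Hspd1 and Hspe1). The sequence is in the direction of Hspe1 and from RefSeq, and the 2 overlapping matches begin 89 and 84 bases before its start.
Hspe1 (chr1:55087898-55088147, plus strand): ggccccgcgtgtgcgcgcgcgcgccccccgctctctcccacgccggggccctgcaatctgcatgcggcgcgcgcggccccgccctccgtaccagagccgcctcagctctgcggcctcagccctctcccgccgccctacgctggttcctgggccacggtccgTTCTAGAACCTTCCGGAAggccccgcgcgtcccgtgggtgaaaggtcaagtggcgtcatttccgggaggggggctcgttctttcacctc
The windows of Chordc1 and Hsph1 did not hold these letters, and that of Hsph1 held an E-box.

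Chaperones of the ER, which fold secreted and membrane proteins, were also mostly higher in the dark. Of 19 genes tested, 12 were higher in the dark at an unadjusted p under 0.05 (18.9% of all genes were) and 1 lower, with a median of 0.27. Without the set-apart libraries 5 were higher (2.69% of all genes were) and 1 lower, with a median of 0.24, and with ZT7 replicate 1 also left out 11 were higher (8.85% of all genes were) and 1 lower. The entry of Pdia4, a disulfide isomerase joined with Mir704, held 18.9 to 31.1 FPKM in the dark and 12.9 to 23 in the light, and differed by 0.51 (SE 0.13), and by 0.47 without the set-apart libraries. Hsp90b1 (GRP94) differed by 0.71 (SE 0.19) and by 0.37 without them, with ZT7 replicate 1 the highest light library at 318 FPKM. Also higher, and picked after their values were seen, were Hspa5 (BiP, the HSP70 of the ER) by 0.49 (SE 0.14), Pdia6 by 0.39 (SE 0.12) and Hyou1 by 0.21 (SE 0.09), with 0.53, 0.44 and 0.29 without the set-apart libraries. Hspa5 lay at 133 to 189 FPKM in all dark libraries, while 7 of the 9 light libraries lay below that range, the exceptions being ZT3 replicate 3 at 167 and ZT7 replicate 1 at 209 FPKM.

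Cirbp and Rbm3, RNA-binding proteins induced by mild cold, were lower in the dark. Cirbp held 17.9 to 62.7 FPKM in the dark (median 47.5) and 53.0 to 106 FPKM in the light (median 82.7). Its values at ZT11 were 88.2, 95.8 and 106 FPKM, and only ZT7 replicate 1, at 92.1, reached them. It differed by −0.88 (SE 0.20) and by −0.52 without the set-apart libraries. Rbm3 differed by −0.32 (SE 0.12) and by −0.20 without them. The third gene of the list, Sf3b1, which encodes a spliceosome subunit, was higher by 0.39 (SE 0.12), and by 0.14 without the set-apart libraries.

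**Figure D3:**
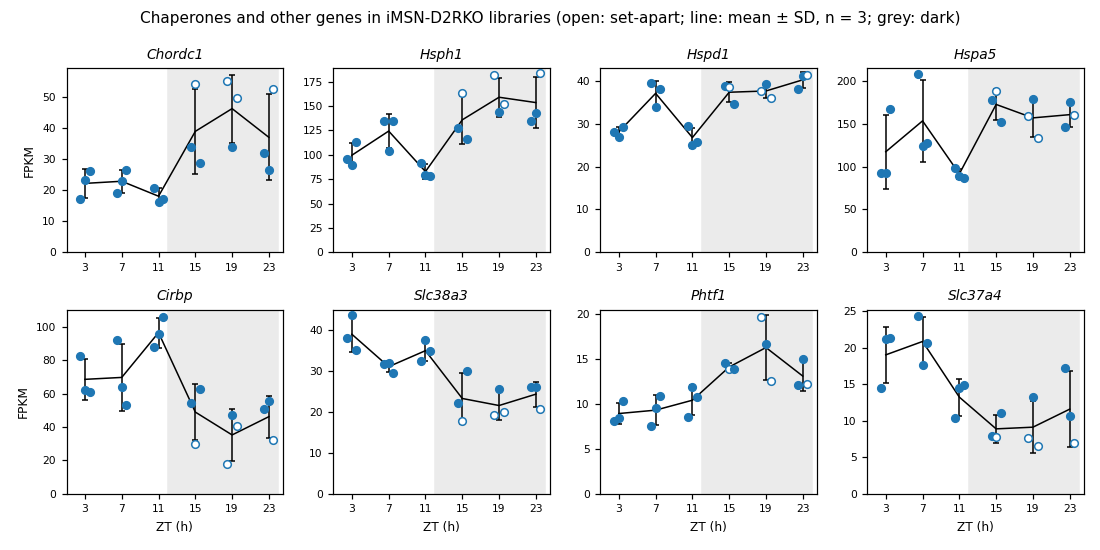
FPKM of 4 chaperone genes, Cirbp, Slc38a3, Phtf1 and Slc37a4 in the 18 iMSN-D2RKO libraries against ZT in hours, with the mean ± SD of 3 libraries as a line, dark hours in grey and set-apart libraries as open circles. Chordc1 and Hsph1 lie mostly higher and Cirbp and Slc38a3 lower in the dark, and the 4 open circles are the highest values of Chordc1. Some ZT7 values of Hsph1 and Hspd1 lie at the dark level.

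Other groups had many members at an unadjusted p under 0.05 with 18 libraries and few without the set-apart ones. Of 31 splicing factors, 18 were higher in the dark at an unadjusted p under 0.05 and 2 lower (median 0.39), beside 18.9% and 12.4% of all genes. The counts were 4 and 1 without the set-apart libraries (median 0.07), beside 2.69% and 2.02%, and 10 and 1 with ZT7 replicate 1 also left out (median 0.15), beside 8.85% and 3.53%. The kinase Clk1, which phosphorylates splicing factors and responds to body temperature, was among the 4, at 0.66 (SE 0.14) with 18 libraries and 0.36 without the set-apart ones, as was Tra2a at 0.46 (SE 0.10) and 0.39. Of 13 GABA-A receptor subunits, 7 were higher and 1 (Gabrd) lower, with a median of 0.47 (18.9% and 12.4% of all genes stood there), against 2 higher and a median of 0.06 without the set-apart libraries. Gabra2, a subunit of synaptic receptors, was one of these, at 0.63 (SE 0.15) and 0.44. Gabrg1 differed by 0.75 (SE 0.26) and by 0.45 without them.

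Nuclear genes of oxidative phosphorylation pointed the other way, with 0 of 50 higher and 21 lower at an unadjusted p under 0.05 (median −0.37), beside 18.9% and 12.4% of all genes. Neither side held any without the set-apart libraries, 0 higher and 0 lower (median −0.01), where 2.69% and 2.02% of all genes stood. Their summed level ran from 12800 to 29900 FPKM in the light, from 12500 to 20300 FPKM in the 5 dark libraries that were not set apart, and down to 7900 FPKM in the set-apart ones. Cox8a, a subunit of complex IV, differed by −0.62 (SE 0.18) and Sdhc, of complex II, by −0.72 (SE 0.24), and by −0.32 and −0.12 without the set-apart libraries. Sdhc lay at 31.6 to 40.1 FPKM in the set-apart libraries and at 73.1 FPKM or more in all others. Of 53 cytosolic ribosomal protein genes, 0 were higher and 15 lower (median −0.30), against the same shares of all genes, and 0 and 1 without the set-apart libraries (median 0.02). The direction was the opposite one with ZT7 replicate 1 left out as well, 8 higher and 3 lower (median 0.14), beside 8.85% and 3.53% of all genes. Rpl34 and Rps21 had the smallest p of these, at −1.90 (SE 0.48) and −1.05 (SE 0.30), and at −0.73 and −0.32 without the set-apart libraries. Many ribosomal protein genes have near-identical copies in the genome, between which the counting can split reads.

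**Figure D4:**
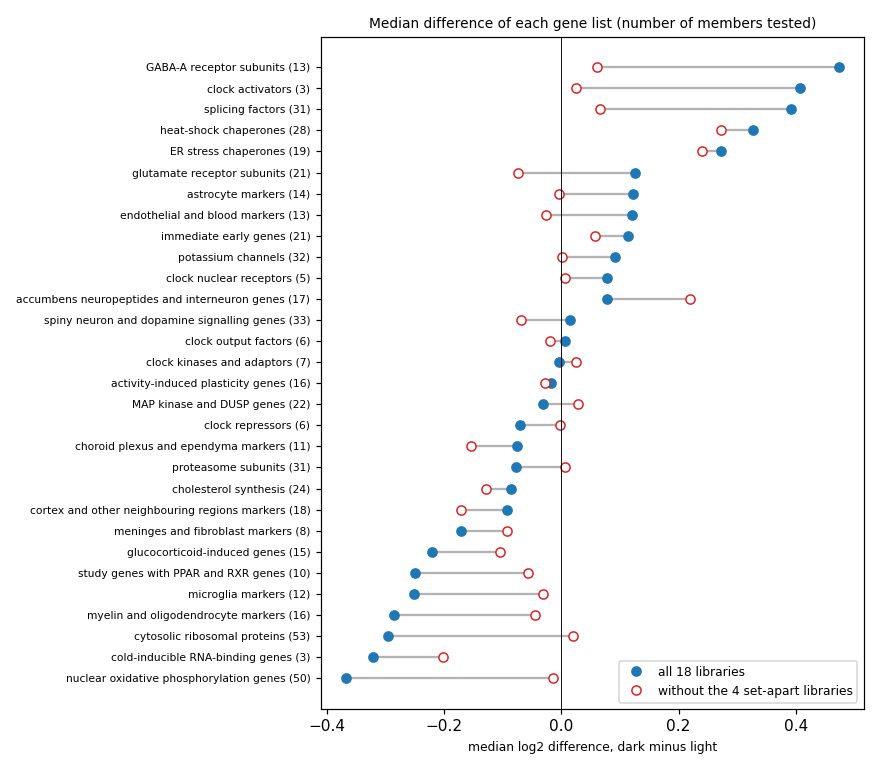
Median difference, dark minus light on the scale log2(FPKM + 1), of each of the 30 gene lists in iMSN-D2RKO mice, with all 18 libraries (filled) and without the 4 set-apart libraries (open), and the number of members tested in brackets. Heat-shock and ER stress chaperones keep medians over 0.2 in both, while GABA-A receptor subunits, splicing factors, oxidative phosphorylation genes and ribosomal protein genes come close to 0 without those libraries.

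Genes induced by glucocorticoids spread to both sides, with 1 of 15 higher in the dark at an unadjusted p under 0.05 and 6 lower (median −0.22), beside 18.9% and 12.4% of all genes. Without the set-apart libraries 2 were higher and 1 lower (median −0.10), beside 2.69% and 2.02%. The one higher with 18 libraries was Plin4, a coat protein of lipid droplets, at 0.56 (SE 0.16), and at 0.49 without the set-apart ones. It lay at 5.11, 5.92 and 2.34 FPKM at ZT15 and at 0.174, 0.474 and 0.198 FPKM at ZT3. Mt2, a metallothionein that binds zinc, differed by −1.18 (SE 0.31), from 177 to 804 FPKM in the light and from 92.3 to 326 FPKM in the dark, and by −0.62 without the set-apart libraries. Of 24 genes of cholesterol synthesis, 1 was higher and 6 lower (median −0.09), and without the set-apart libraries 0 and 4 against 2.69% and 2.02% of all genes (median −0.13), with 21 of the 24 below 0. With ZT7 replicate 1 also left out, 0 were higher and 7 lower, against 8.85% and 3.53%. The entry that joins Tm7sf2, a sterol reductase, with Vps51 differed by −0.66 (SE 0.17) and by −0.26 without them.

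Immediate early genes, which neurons switch on within minutes of firing, numbered 21, of which 2 were higher in the dark at an unadjusted p under 0.05 and 1 lower (median 0.11), shares below the 18.9% and 12.4% of all genes, and none either way without the set-apart libraries. Nr4a3, an orphan nuclear receptor, differed by 0.84 (SE 0.23), with 4.06 to 12.7 FPKM in the dark and 1.47 to 7.0 in the light, and Jun by 0.36 (SE 0.11). They differed by 0.52 and 0.19 without the set-apart libraries. Of 16 plasticity genes that follow activity later, 3 were higher and 3 lower (median −0.02). Scg2, a granin of secretory granules, was higher by 0.69 (SE 0.15) and by 0.53 without the set-apart libraries, while Gadd45b differed by −0.62 (SE 0.24) and −0.15. Among 22 MAP kinase and DUSP genes 2 were higher and 1 lower (median −0.03), Map2k6 differing by 0.54 (SE 0.18) and Spred1 by 0.36 (SE 0.16), with 0.15 and 0.12 without the set-apart libraries. Of 21 glutamate receptor subunits 2 were higher and 3 lower (median 0.13), with the kainate receptor subunits Grik2 at 0.50 (SE 0.17) and Grik5 at −0.44 (SE 0.13), and at 0.14 and −0.25 without those libraries. Of 32 potassium channel genes 2 were higher and 2 lower (median 0.09), with Kcnip4 at 0.80 (SE 0.27) and Kcnt1 at −0.27 (SE 0.10), and at 0.15 and −0.21 without them. Of 31 proteasome subunits 4 were higher and 4 lower (median −0.08). In each of these 5 lists the share higher lay below the 18.9% of all genes, and the share lower lay above their 12.4% in the plasticity genes, glutamate receptor subunits and proteasome subunits. Without the set-apart libraries these last 4 lists had 1 gene lower at that level, the phosphatase Dusp7 at −0.37, and no other on either side. With ZT7 replicate 1 also left out, the proteasome subunits had 6 higher and 1 lower (median 0.15), beside 8.85% and 3.53% of all genes.

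Genes of spiny neurons and dopamine signalling spread to both sides, with 4 of 33 higher in the dark at an unadjusted p under 0.05 and 5 lower. The share higher lay below the 18.9% of all genes and the share lower just above their 12.4%. Their median was 0.01, and −0.04 under median-ratio scaling. Higher were Oprm1 and Oprk1, the mu and kappa opioid receptors, by 0.71 (SE 0.30) and 0.43 (SE 0.17), Drd3 by 0.54 (SE 0.23) and Slc35d3 by 0.28 (SE 0.12), and these 4 differed by 0.28, 0.22, 0.44 and 0.21 without the set-apart libraries. Lower were Rasgrp2, an activator of RAP1, at −0.62 (SE 0.22), Chrm4, the muscarinic receptor of direct-pathway neurons, at −0.46 (SE 0.16), and Adora2a, Adcy5 and Pde1b at −0.63 (SE 0.23), −0.38 (SE 0.17) and −0.43 (SE 0.19). Rasgrp2, Chrm4, Adcy5 and Pde1b stood at −0.41, −0.23, −0.07 and −0.07 without the set-apart libraries. Adora2a, the adenosine receptor that opposes D2R in iMSNs, held 65.3 to 188 FPKM in the dark and 148 to 262 FPKM in the light. Its 4 lowest values, 65.3, 70.7, 87.8 and 113 FPKM, were those of the set-apart libraries, and without these the difference was −0.19. Without them, 1 gene of the list was higher at that level, Pdyn (prodynorphin) by 0.75, and 1 lower, Cnr1 (the cannabinoid receptor CB1) at −0.76. Drd1 lay at 82.3 to 133 FPKM in the light and at 83.2 to 145 FPKM in the dark. In ZT7 replicate 1, 10 of the 33 genes had their highest value, Penk at 9282 FPKM against 1197 to 3399 in the other libraries.

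Among 17 neuropeptide and interneuron genes, 3 were higher and 1 lower (median 0.08), beside 18.9% and 12.4% of all genes, and 2 and 1 without the set-apart libraries (median 0.22), beside 2.69% and 2.02%. The lower one was Slc18a3, the vesicular acetylcholine transporter of cholinergic interneurons, at 4.08 to 8.22 FPKM in the dark and 6.26 to 15.3 in the light, a difference of −0.59 (SE 0.16), and of −0.42 without the set-apart libraries. Crh, corticotropin-releasing hormone, differed by 0.86 (SE 0.34) and by 1.04 without them. Its values varied within time points, as at ZT3, where they were 6.44, 0.816 and 3.74 FPKM. A list that joins genes followed in the study (Pparg, Adora2a, Kcnd1 and Gabrd) with related PPAR, RXR and coactivator genes had 0 of 10 genes tested higher and 5 lower. The study picked Adora2a, Kcnd1 and Gabrd from genes it found rhythmic in this series, so that their direction is no independent evidence. It followed them over the day by PCR in WT mice given saline or cocaine and in iMSN-D2RKO mice given cocaine. It followed PPARγ, the product of Pparg, as protein. Gabrd, the GABA-A subunit of receptors outside synapses, differed by −0.60 (SE 0.23), Rxrg by −0.56 (SE 0.19), Rxrb by −0.40 (SE 0.17) and Ppard by −0.32 (SE 0.13). Without the set-apart libraries none of the list stood at that level, with Gabrd at −0.16, Rxrg at −0.38, Ppard at −0.24 and Rxrb at −0.04, and the sign of Rxrb turned with the library score as a covariate (0.0038). Rxrg, a retinoid receptor, was highest in ZT7 replicates 1 and 3, at 112 and 111 FPKM. Pparg was listed below 1 FPKM in all 18 libraries and was not tested for dark against light.

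Markers of other cells and of neighbouring tissue were summed in each library. Summed over 16 genes, myelin and oligodendrocyte markers lay at 2480 to 5760 FPKM in the light and at 2290 to 4400 in the dark, with 1 higher (Ermn) and 6 lower at an unadjusted p under 0.05, where 18.9% and 12.4% of all genes stood. Astrocyte markers (14 genes) lay at 1160 to 1530 FPKM and at 1090 to 1640 FPKM, with 1 higher (Slc1a3) and 0 lower. Microglia markers (12 genes) lay at 323 to 663 FPKM and at 251 to 450 FPKM, with 0 higher and 3 lower, Siglech at −0.33 (SE 0.10) and Trem2 at −0.44 (SE 0.19). They stood at −0.20 and −0.12 without the set-apart libraries, and the sign of Trem2 turned with ZT7 replicate 1 also left out (0.0051). Endothelial and blood markers (13 entries) ran from 311 to 877 FPKM and from 284 to 501 FPKM, with 1 higher and 4 lower, Alas2 at −0.59 (SE 0.12) and Slc2a1 at −0.38 (SE 0.12), and at −0.51 and −0.23 without those libraries. Meningeal and fibroblast markers (8 genes) ran from 168 to 945 FPKM and from 136 to 351 FPKM, with 2 lower. Markers of cortex and other neighbouring regions (18 genes) ran from 997 to 5690 FPKM and from 899 to 1700 FPKM, with 2 higher and 0 lower, and 1 and 4 without the set-apart libraries, beside 2.69% and 2.02% of all genes. The highest light value of this list was that of ZT7 replicate 1, the next being 2150 FPKM. Choroid plexus and ependyma markers (11 genes) ran from 56.0 to 1410 FPKM and from 72.9 to 746 FPKM, with none on either side. Ttr, the defining choroid plexus gene, was listed at 0 in 4 libraries and reached 1104 FPKM in ZT11 replicate 1. No myelin marker was left at that level without the set-apart libraries (0 higher and 0 lower). The part of cell composition in the differences between dark and light was not tested.

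A 24 h rhythm was tested by a cosine and sine term over all 18 libraries. Ciart was the only gene that passed the adjusted threshold (1 of 14135, 0.00707%), with an adjusted p of 0.00675 by limma, a fitted peak at ZT11.4 and a distance from peak to trough of 1.43 on the log2 scale. It passed in 27 of 32 alternatives. It failed without the set-apart libraries, where no gene passed and the adjusted p of Ciart was 0.257, and its adjusted p over all alternatives ran from 0.000256 to 0.356. The unadjusted p without the set-apart libraries was 1.85e-05 by limma, and the distance from peak to trough stayed between 1.36 and 1.60 over the alternatives. After Ciart the smallest p among genes with a mean of at least 2 FPKM were those of Mmp14, Phtf1, Slc37a4, Sorcs2 and Adamtsl5, each at an adjusted p of 0.182 by limma. Mmp14, a membrane-bound matrix protease, lay high at the end of the night and low after lights off, at 6.33 to 9.85 FPKM at ZT23 and 3.86 to 4.19 at ZT15, with a fitted peak at ZT1.93, and it passed with the library score as a covariate (adjusted p = 0.0489 by limma, as 1 of 4 genes called there, 0.0283%), with a range of 0.0489 to 0.834 over its alternatives. The others called there were Ciart and, also at 0.0489, the clock gene Nr1d2 and Mthfd1l, a mitochondrial enzyme of folate metabolism. The fitted peaks of Slc37a4, Adamtsl5 and Sorcs2, a receptor of the VPS10 family, were at ZT5.63, ZT6.41 and ZT8.17, and that of Phtf1 at ZT18.2. Per3 had an unadjusted p of 0.000657 by limma and a fitted peak at ZT13.2, while Nr1d1 peaked at ZT8.38, Dbp at ZT8.78, Per2 at ZT16.5 and Arntl at ZT21.9. None of these 5 genes passed the adjusted threshold. The fitted peaks of Nr1d1 and Dbp include ZT7 replicate 1, which had the highest value of both genes, at 113 and 392 FPKM. Nr1d1 lay at 57.5 and 58.9 FPKM in the other ZT7 libraries and at 67.7 to 76.1 at ZT11. Dbp lay at 119 and 122 FPKM in the other ZT7 libraries and at 152 to 166 at ZT11.

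The difference between dark and light was then compared between iMSN-D2RKO and WT mice, in a fit over 36 libraries in which 3 of the 18 WT libraries were set apart, all of them in the dark hours. No gene differed between the genotypes at an adjusted p under 0.05 by limma (0 of 14287, 0.0%), and 533 did at an unadjusted p under 0.05 (3.73%). The difference of Chordc1 was 0.55 in WT mice and 0.89 in iMSN-D2RKO mice, that of Hsph1 0.34 and 0.56, that of Cirbp −0.50 and −0.88 and that of Nr1d1 −0.41 and −0.54. The interval of the genotype difference of these genes included 0: −0.08 to 0.77 for Chordc1, −0.07 to 0.49 for Hsph1, −0.88 to 0.12 for Cirbp and −0.48 to 0.22 for Nr1d1 (95% intervals). Slc37a4 differed between dark and light by −0.81 in iMSN-D2RKO mice and by 0.27 in WT mice, and the genotypes differed by −1.08 (SE 0.25, adjusted p = 0.474 by limma). It was the only call without the set-apart libraries (adjusted p = 0.0248 by limma, 0.00712% of the genes tested) and with the library score as a covariate (0.0287, 0.007%), and passed in 3 of 50 alternatives in all, over which its adjusted p ran from 0.00755 to 0.9999. Other genes with small p among those with a mean of at least 2 FPKM were Hmgn2, a nucleosome-binding protein, 1700003M07Rik, Clmp and Cntnap1, with genotype differences of 3.41, 1.05, 0.70 and −0.50 and adjusted p from 0.447 to 0.764 by limma. Between dark and light, 1700003M07Rik differed by 0.048 in iMSN-D2RKO mice and by −1.001 in WT mice, so its genotype difference lay mostly in WT mice. Clmp differed by 0.44 and −0.25, and Cntnap1 by −0.46 and 0.04, in the same order. Hmgn2 lay at 0.346 FPKM in ZT7 replicate 1 and at 8.28 to 25.5 FPKM in the other iMSN-D2RKO libraries. Among these others, the light values ran from 8.28 to 23.8 FPKM and the dark ones reached 25.5 FPKM, so that dark and light overlapped. The genotype difference of Hmgn2, 3.41, therefore also lay mostly in WT mice, where the gene was lower in the dark. It ran from 2.93 to 4.77 over 50 alternatives, among them fits without ZT7 replicate 1.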

How the data were processed

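RNA from frozen punches of ventral striatum was sequenced by the authors from stranded poly-A libraries as single-end reads. The deposited values are FPKM per gene, made by the authors with TopHat and Bowtie against mm10 and computed with Cuffnorm, whose normalization option is not given in the sources used here. The number of reads is unknown, so no counting error could be given. The 6 ZT3 columns that the table repeats under cocaine were not used a second time. Cocaine libraries entered only the library score.

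Genes reaching 1 FPKM in any of the 18 libraries were tested on log2(FPKM + 1) with limma 3.58.1 (lmFit and eBayes with trend, R 4.3.3), with time point as a factor of 6 levels, and p-values were adjusted by Benjamini-Hochberg over all genes tested at a threshold of 0.05. Tests are two-sided. The 24 h rhythm was an F test of a cosine and a sine term, and the genotype difference an interaction contrast over 36 libraries. The fits were tested on simulated data with independent noise in each library. These data held no shared library axis, so they do not show how the fits behave with set-apart libraries.

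The library score was made from 9584 genes with a mean above 5 FPKM, as the first axis of the differences from group means over 66 libraries, on which 13 libraries scored 44.3 to 56.1 (set apart) and the others at most 15.1. The 30 gene lists and the genes compared were chosen with earlier results of these data known. Named were, where fewer than 5 genes were called, the 8 genes with the smallest p in each direction at a mean of at least 2 FPKM, any gene of the clock and spiny neuron lists and of the list that joins genes the study followed with related PPAR and RXR genes, up to 2 genes with the smallest p of each other list, and 6 genes each for the rhythm and the genotype difference. Genes named outside this rule were chosen after their values were seen. Some genes that the rule names are not reported here. In gene lists, entries that join several genes count once, and symbols were matched by name. Alternatives were a pseudocount of 0.1, other filters, median-ratio scaling, the library score as a covariate, a replicate block, and fits without single libraries, time points or set-apart libraries. Figures were drawn with matplotlib 3.10.9. Promoters were read from RefSeq (GRCm38.p6), the build that mm10 names.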

Additional observations from a re-analysis of the deposited data

Results flagged for a closer look

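Single libraries that stood far from the other 8 of their phase, by Dixon's criterion, were found 20 times among 104 values, each examined in the dark and in the light libraries, and chance marks about 1 group in 20. Of these, 14 were values of ZT7 replicate 1. In that library the sum of FPKM was 690048, and the highest light values were Dbp at 392 FPKM, Rasgrp2 at 346, Hsp90b1 at 318, Hspa8 at 318, Gabrd at 181, Stip1 at 158, Nr1d1 at 113, Fkbp4 at 90.7, Rxrb at 61.6, Usp2 at 51.4 and Trem2 at 41.4 FPKM. It also held the lowest light values of Clock, at 4.83 FPKM, and of Ppara, at 0.265 FPKM. The part of this library in the differences was measured by leaving it out, which gave 43 genes at an adjusted p under 0.05 by limma.

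The other values lay in other libraries. ZT3 replicate 2 had the highest light values of Ppard, at 19.1 FPKM, and of Pigz, at 9.5 FPKM, and ZT3 replicate 3 that of Cry1, at 17.2 FPKM. In the dark, ZT15 replicate 2 had the highest Nr1d1, at 73.1 FPKM, and ZT23 replicate 3 the highest Nts, at 61.3 FPKM, both of them set-apart libraries. ZT23 replicate 2 had the highest dark sum, at 465297 FPKM.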

How the results depend on the processing

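The number of genes called for dark against light (none with all libraries) was 3 with no filter, 467 without ZT7, 1 without ZT11, 2 without the set-apart libraries and ZT7 replicate 1 together, an alternative chosen after seeing the data, and 0 to 3598 without single libraries. At an unadjusted p the number (4427) became 657 when the set-apart libraries were left out, 1019 with the library score, 2465 without ZT3, 2164 without ZT19, 1708 in the added alternative and 2724 to 6178 without single libraries. The genotype difference had 1 call without the set-apart libraries, 1 with the library score, 1 without ZT23, 4 in the added alternative and 0 to 5 without single libraries, and at an unadjusted p 895 with no filter, 1018 with the score, 1116 in the added alternative and 396 to 1026 without single libraries. The rhythm had 2 calls at a pseudocount of 0.1, 4 with the score, 0 without the set-apart libraries, ZT3, ZT15 or ZT23, 14 without ZT7, 2 without ZT19 and 1 to 2 without single libraries, and at an unadjusted p (3399 with all libraries) 456 without the set-apart libraries, 483 with the score, 2020 without ZT3, 1915 without ZT11, 2089 without ZT15, 969 without ZT19, 1022 in the added alternative and 1594 to 4788 without single libraries. Fits without a time point hold fewer libraries. Drd2 between genotypes turned to 0.013 without ZT3, 0.034 without ZT11 and 0.022 without ZT19, and ran from −0.11 to 0.057 without single libraries. The sign turned for Clock (−0.060 with the score, −0.080 in the added alternative), Rxrb (0.0038 and 0.020) and Trem2 (0.0051 in the added alternative). The cause was not tested. The replicate numbers share only a number, as seen in the differences of libraries from the mean of their time point. Between same-numbered libraries of different time points these correlated at −0.83 to 0.72 (median −0.08), 9 of 45 pairs over 0.1. Between differently numbered ones the median was 0.06, with 37 of 90 pairs over 0.1. A replicate block left 0 genes called (3898 at an unadjusted p), 0 for the genotype difference and 1 for the rhythm. Depth is unknown, so the precision of low FPKM is too.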

Other observations

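Of 18 markers of cortex and other neighbouring regions, 5 lay above 0 and 13 below without the set-apart libraries, and 1 was higher (Gpr101) and 4 lower at an unadjusted p under 0.05, beside 2.69% and 2.02% of all genes. The 4 differed by −1.14 (Tbr1), −1.22 (Neurod6), −1.05 (Neurod2) and −0.93 (Fezf2). From other lists, Nptx1, a pentraxin of excitatory synapses, stood at −0.79 and Cnr1 at −0.76. None passed the adjusted threshold by limma, and all were chosen after their values were seen. With all 18 libraries the same genes differed by −0.21, 0.02, −0.79, −0.57, −0.40 and −0.24. The summed level of the cortical and neighbouring markers was 5690 FPKM in ZT7 replicate 1 and at most 2150 FPKM in the other light libraries. The median of the list was −0.17 without the set-apart libraries and −0.23 with ZT7 replicate 1 also left out. The part of tissue from neighbouring regions in these differences was not tested.

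Without the set-apart libraries the peptide genes Cartpt and Pdyn lay higher in the dark, by 1.27 and 0.75, beside 0.66 and 0.35 with all libraries. They were picked after their values were seen, and neither passed the adjusted threshold with all libraries. The dark values of Pdyn, 30.6 to 83.2 FPKM, lay within its light range of 26.3 to 86.6 FPKM.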
